A study of Mus musculus with 11 samples.

Results

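The miR-183/miR-96/miR-182 cluster, called the miR-183 cluster below, is a group of 3 miRNA hairpins that give 6 mature miRNAs: mmu-miR-183-5p, mmu-miR-183-3p, mmu-miR-96-5p, mmu-miR-96-3p, mmu-miR-182-5p and mmu-miR-182-3p. They were chosen by name, both arms of miR-183, miR-96 and miR-182, and are 6 of the 1966 mature miRNAs listed. Small RNA was sequenced from 11 libraries of mouse embryonic stem cells of one strain (NBA1-19349, Novus), grown without feeder cells in 2i medium with LIF. Induced E518K cells (3 libraries, clones 8, 13 and 15) were labelled DGCR8 E518K/E518K, carried the transposon vector pSB ET iE-FlagDGCR8-E518K, introduced together with pCMV(CAT)-SB100X, and received doxycycline at 300 ng/mL for 48 h. Untreated E518K (clone 8) and untreated wild type (clone 10) were 1 library each and served in the study to look for leaky vector expression. The knockout cells (KO, labelled DGCR8 -/-, 3 libraries) were not transfected but received the same doxycycline. Induced wild type (3 libraries, clones 10, 12 and 16) was labelled DGCR8 wt/wt, carried pSB ET iE-FlagDGCR8-wt and the same second plasmid, and received the same doxycycline. All 3 KO titles named one clone, 261, whereas the design text speaks of 3 independent clones per condition, so the spread in KO may be technical. The vector brings its DGCR8 in from outside its own locus, so its amount need not match that of the natural gene.

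A miRNA begins as a hairpin within a long primary transcript, from which the microprocessor, made of the nuclease Drosha and its RNA-binding partner DGCR8, cuts it out. Dicer then removes the loop, and 1 arm of the remaining duplex is usually kept in an Argonaute protein while the other is degraded. The kept strand finds target messenger RNAs mainly through its seed, bases 2 to 8. The miR-183 cluster is best known from sensory organs such as the inner ear and retina, where mutation of the miR-96 seed causes hearing loss in mouse and human, and it is also expressed in mouse embryonic stem cells. E518K is a change of a glutamate in DGCR8 that recurs in Wilms tumour, a kidney tumour of childhood.

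The mature sequences below, from RefSeq (GRCm38.p6, the build the submitters' notes name), carry the relation between the members, with the seed in capitals.
mmu-miR-183-5p: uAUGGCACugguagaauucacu
mmu-miR-96-5p: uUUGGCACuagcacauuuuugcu
mmu-miR-182-5p: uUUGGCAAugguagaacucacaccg
mmu-miR-183-3p: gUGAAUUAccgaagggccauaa
mmu-miR-96-3p: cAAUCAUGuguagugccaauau
mmu-miR-182-3p: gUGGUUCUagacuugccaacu
The 3 members of the 5p arm have near-identical but not identical seeds. Counting from 1 at the 5′ end, miR-96-5p differs in its seed from miR-183-5p by A2U, and miR-182-5p differs from miR-96-5p by C8A. Between miR-183-5p and miR-182-5p both changes, A2U and C8A, were present, so that 5 of the 7 seed bases were shared. Over the whole length the pair most alike was miR-183-5p and miR-182-5p, with 18 of 22 positions identical, against 13 of 22 for miR-183-5p and miR-96-5p and 12 of 23 for miR-96-5p and miR-182-5p. The 3p arms share no seed with each other. A search of the listed miRNAs for the same seeds found mmu-miR-1271-5p, which carries the miR-96-5p seed, and mmu-miR-3475-5p, which carries the miR-96-3p seed.
mmu-miR-1271-5p: cUUGGCACcugguaagcacuca
mmu-miR-3475-5p: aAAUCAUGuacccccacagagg
Both had 0 counts in all 11 libraries, so the miR-96 seeds had no other counted source among the listed miRNAs matched to the RefSeq table.

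The 3 hairpins lie on the minus strand of mouse chromosome 6 in the order Mir183 (chr6:30169668-30169737), Mir96 (chr6:30169446-30169551) and Mir182 (chr6:30165918-30165992) in the direction of transcription. Mir183 and Mir96 are separated by 116 bases, and Mir96 and Mir182 by 3453 bases, within a span of 3820 bases. In the GENCODE annotation of the same build none of them overlaps another gene. The nearest protein-coding genes are Nrf1, on the opposite strand and ending at 30153458, and Ube2h, which starts its annotated span at 30211289. A long non-coding RNA, Rncr4, lies between the hairpins and Ube2h on the opposite strand (30172893 to 30175126). The hairpins below are shown because they are what DGCR8 and Drosha recognise; capitals mark the mature arms, the 5p arm first, and the letters between them are the loop.
Mir183: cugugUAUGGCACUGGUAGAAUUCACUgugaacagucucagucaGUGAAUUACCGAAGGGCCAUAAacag
Mir96: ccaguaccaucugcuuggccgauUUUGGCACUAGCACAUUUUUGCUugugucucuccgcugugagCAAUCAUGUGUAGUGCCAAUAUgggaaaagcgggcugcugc
Mir182: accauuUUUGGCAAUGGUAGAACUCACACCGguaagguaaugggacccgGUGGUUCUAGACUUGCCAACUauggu
Their loops are 17, 19 and 18 bases long in Mir183, Mir96 and Mir182, against a median of 16 (quartiles 14 and 19) over the 644 mouse hairpins in the table with both arms. The motif UGU, known from human hairpins as an apical element that DGCR8 contacts, was searched on the transcribed strand within the loop and 3 bases into each arm. It was present in Mir183 and Mir96 and not in Mir182, and 45.5% of the 644 hairpins held it.

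Total miRNA counts were 1050564 to 1797240 in induced E518K, 264507 in untreated E518K, 1421247 in untreated wild type, 166676 to 208846 in KO and 3394216 to 6128734 in induced wild type. Counts were mostly even (90.3% of those from 1 to 40), so 1 small RNA was taken as 2 counts, and a library at 0 allows up to 6 counts, which is 12.8 to 18.3 CPM (counts scaled to a common library size) in KO. CPM here use the trimmed mean of M-values (TMM) for scaling, and PCR copies are not separate molecules, so intervals and floors cover counting error only. The embryonic stem cell miRNAs on the marker list made up 15.7 to 18.0% of counts in induced E518K, 1.43% in untreated E518K, 32.0% in untreated wild type, 0.127 to 0.373% in KO and 34.4 to 39.6% in induced wild type. All 22 listed stem cell miRNAs had counts in both induced vector groups and 14 in KO. Fibroblast feeder markers held 0.163 to 0.221%, 0.906%, 0.359%, 1.23 to 1.74% and 0.222 to 0.32% in the same order of groups, while neural, muscle, liver and blood markers each stayed below 1%. The part of such cells in the results was not tested, and in RNA from a whole culture fewer cells of a type and less RNA per cell cannot be told apart.

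The cluster took its highest share of the miRNA counts in induced E518K cells and its lowest in KO. Its 6 arms held 24.6, 26.6 and 27.0% of the counts in the induced E518K libraries (26.1% ± 1.33, SD, n = 3). They held 18.3% in untreated E518K (95% exact Clopper-Pearson interval 18.1 to 18.5) and 14.4% in untreated wild type (14.3 to 14.5). In KO the shares were 0.189, 0.232 and 0.309% (0.243% ± 0.0607), and in induced wild type 6.42, 7.0 and 6.90% (6.77% ± 0.314). No induced E518K library overlapped another group, and no KO library did. Shares depend on what else is in the library: the miR-290 to miR-295 cluster (miR-290 cluster), the most abundant miRNA locus of mouse embryonic stem cells, held 29.3% ± 3.06 in induced E518K and 55.4% ± 5.24 in induced wild type. With the miR-290 cluster left out of the total the cluster held 36.9% ± 2.81 in induced E518K and 15.3% ± 1.84 in induced wild type.

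**Figure D1:**
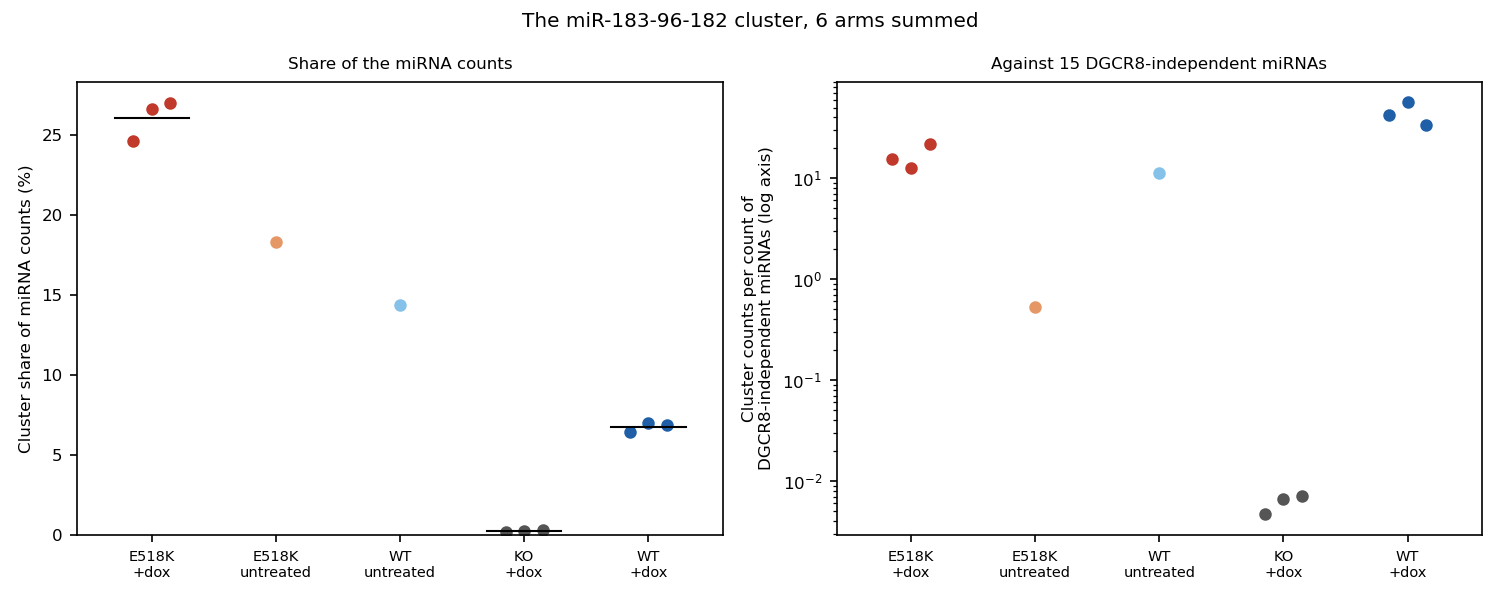
Left, share of the miRNA counts (%) held by the 6 arms in each of 11 libraries, and right, cluster counts per count of 15 listed DGCR8-independent miRNAs (log axis); points are libraries and bars the mean of 3. On the left induced E518K is highest at 24.6 to 27.0%, whereas on the right induced wild type is highest at 33.9 to 56.6.

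The order of the groups changed when the cluster was set against miRNAs that do not need DGCR8. This list holds 15 listed miRNAs known as mirtrons or as other Drosha-independent small RNAs (miR-320, miR-484, miR-877, miR-1839 and others), and was compiled with earlier results of these data known. The libraries held 15.6, 12.6 and 21.7 cluster counts per count of that list in induced E518K, against 42.5, 56.6 and 33.9 in induced wild type. Untreated E518K had 0.528, untreated wild type 11.3, and KO 0.00466, 0.0066 and 0.00715. The list itself held 1.64% ± 0.439 of counts in induced E518K, 34.6% in untreated E518K, 1.27% in untreated wild type, 39.6% ± 4.14 in KO and 0.159% ± 0.0404 in induced wild type. By share of the total, the induced E518K libraries lay above the induced wild-type ones, and by this ratio below them, with no overlap in either case.

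Induced E518K was first set against induced wild type, to ask what the mutation does to the cluster. With TMM scaling all 6 arms were higher in induced E518K. The test was edgeR's quasi-likelihood test over 730 miRNAs with Benjamini-Hochberg adjustment at 0.05, and 28.2% of all tested miRNAs were called higher in the same comparison. Every E518K library lay above every wild-type library for all 6 arms, which held for 25.8% of tested miRNAs. The median log2 change was 1.84 over the 6 arms and −0.14 over all tested miRNAs.

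Among the 5p arms, which are the abundant strands here, mmu-miR-183-5p had 147235, 107887 and 191032 CPM in induced E518K clones 8, 13 and 15, against 37767, 46732 and 29392 CPM in induced wild-type clones 10, 12 and 16. The groups did not overlap, and the log2 change was 1.97 ± 0.42 (SE, adjusted p = 1.14e-05). mmu-miR-182-5p had 137035, 118645 and 189576 CPM in induced E518K and 67505, 81222 and 44319 CPM in induced wild type. Its groups did not overlap either, although wild-type clone 12 lay closer to the E518K clones than for mmu-miR-183-5p, and the change was 1.21 ± 0.41 (adjusted p = 0.00714). mmu-miR-96-5p, the member whose seed is mutated in inherited deafness, was far less abundant, with 3349, 5141 and 4302 CPM in induced E518K and 1374, 2042 and 1887 CPM in induced wild type. It changed by 1.27 ± 0.38 (adjusted p = 0.00187), a call lost without wild-type clone 10 (1.01, adjusted p = 0.0526). All 3 changes were larger when wild-type clone 16 was left out, at 2.59 for mmu-miR-183-5p, 1.77 for mmu-miR-182-5p and 2.04 for mmu-miR-96-5p, and the median of all tested miRNAs was 0.73, with 250 called higher and 164 lower.

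The 3p arms, the scarce strands of each hairpin here, were all higher in induced E518K as well. mmu-miR-183-3p had 335.0, 288.5 and 351.4 CPM in induced E518K and 38.75, 63.12 and 44.66 CPM in induced wild type, the largest change of the 6 (2.73 ± 0.44, adjusted p = 6.76e-09). mmu-miR-182-3p had 427.2, 424.0 and 383.7 CPM in induced E518K and 69.16, 118.1 and 95.8 CPM in induced wild type (2.12 ± 0.42, adjusted p = 1.92e-06). mmu-miR-96-3p had 319.3, 299.3 and 198.4 CPM in induced E518K and 51.99, 109.3 and 87.46 CPM in induced wild type (1.71 ± 0.43, adjusted p = 2e-04). Without wild-type clone 16 the changes were 3.39 for mmu-miR-183-3p, 2.83 for mmu-miR-182-3p and 2.41 for mmu-miR-96-3p. In TMM-scaled CPM the E518K clones agreed most closely for mmu-miR-182-3p, with a coefficient of variation of 5.9%, and least for mmu-miR-183-5p, with 28.0%. This order depends on the scaling. By share of the miRNA counts mmu-miR-183-5p had 12.75% ± 0.547 and mmu-miR-182-3p 0.0373% ± 0.0109 (SD, n = 3). The spread relative to the mean was then smaller for mmu-miR-183-5p.

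**Figure D2:**
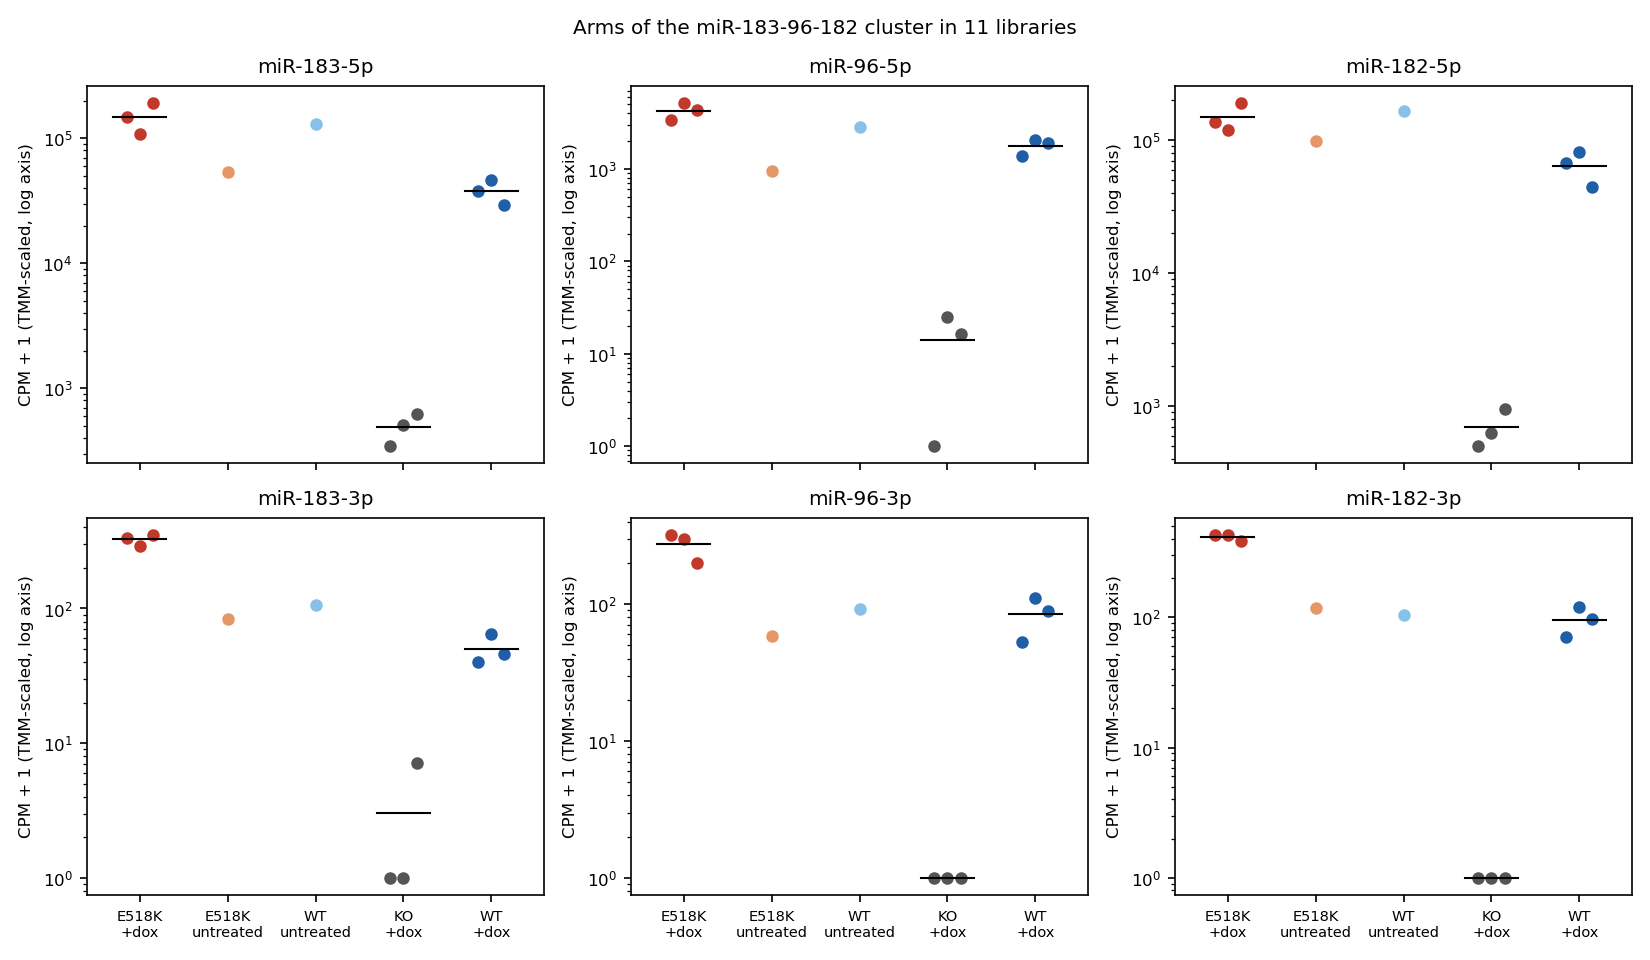
CPM + 1 (TMM-scaled, log axis) of each arm in 11 libraries, with 5p arms above and 3p arms below; points are libraries, bars the mean of 3, and points at 1 are libraries with 0 counts. In every panel the 3 induced E518K libraries lie above the 3 induced wild-type libraries, and KO is lowest.

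This direction rests on the scaling between libraries. It held with total counts, with DESeq2's size factors, with the deposited scaling and with TMM factors computed without the 6 members. When libraries were scaled to the DGCR8-independent list, all 6 values were negative, at −0.98 for mmu-miR-183-5p (adjusted p = 0.0235), −1.70 for mmu-miR-96-5p (3.71e-05), −1.74 for mmu-miR-182-5p (5.5e-05), −1.27 for mmu-miR-96-3p (0.00655), −0.85 for mmu-miR-182-3p (0.0701) and −0.24 for mmu-miR-183-3p (0.658). Under that scaling 7 of all tested miRNAs were called higher and 510 lower, against 206 and 258 with TMM, and the median of all tested miRNAs moved to −3.09. All 6 arms lay above the median of all tested miRNAs under both scalings. A change of scaling moves all miRNAs by nearly the same amount, so this position is almost fixed and its repeat is no separate evidence.

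**Figure D3:**
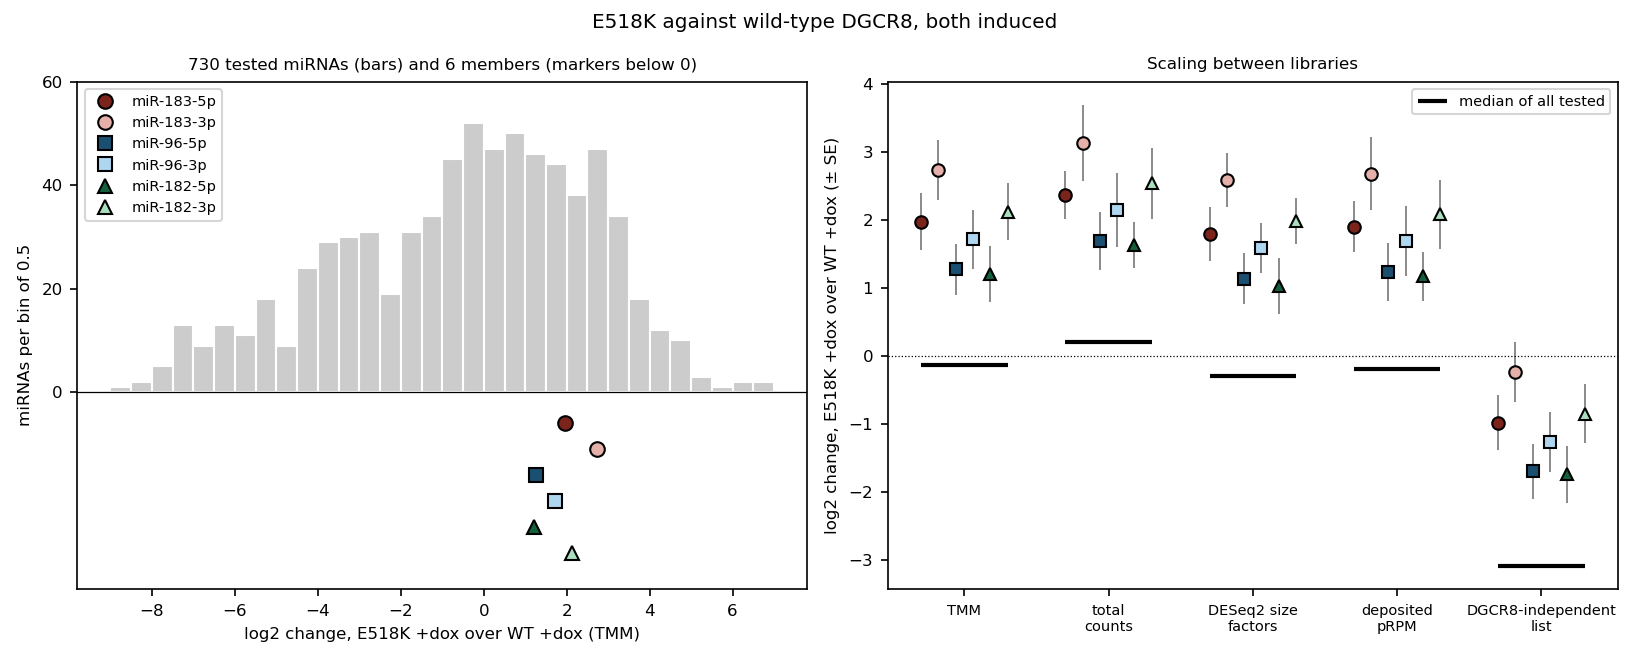
Left, number of tested miRNAs per bin of the log2 change (induced E518K over induced wild type, TMM), with the 6 arms as markers below 0. Right, the change of each arm (± SE) under 5 scalings, with the median of all tested miRNAs as a bar: all 6 arms are above 0 under 4 scalings and below 0 with the DGCR8-independent list, and above the median under each. A change of scaling moves the arms and the median nearly together.

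The other lists are given beside the cluster. Of all tested miRNAs 28.2% were called higher and 35.3% lower in this comparison. In induced E518K against induced wild type, 0 of 18 miR-290 cluster miRNAs were called higher and 9 lower (median log2 change −0.60). The let-7 family, which rises as stem cells differentiate, had 11 of 13 tested members higher and 1 lower (median 2.19), and the miR-200 family, which restrains the epithelial-mesenchymal transition, 0 of 7 higher and 4 lower (median −1.23). Of the DGCR8-independent miRNAs 12 of 14 were higher and 0 lower (median 2.95).

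Ratios within a library do not depend on the scaling. For miR-183 the 5p arm outnumbered the 3p arm 440, 374 and 544 times in induced E518K and 975, 740 and 658 times in induced wild type, with no overlap. The difference of the mean log2 ratios was −0.80, with an exact two-sided permutation p of 0.1, the smallest that 3 against 3 allows (0.3 adjusted over the 6 ratios tested). For miR-182 the 5p over 3p ratio was 321, 280 and 494 in induced E518K and 976, 688 and 463 in induced wild type, a difference of −0.93 with overlap (exact permutation p = 0.2). For miR-96, where the arms are much closer in number, it was 10.5, 17.2 and 21.7 in induced E518K and 26.4, 18.7 and 21.6 in induced wild type (−0.48, exact permutation p = 0.3). All 3 arm ratios were on average lower in E518K, but none of these differences could pass a threshold of 0.05 in this design. Within E518K clone 8 the miR-183 and miR-182 ratios were 440 and 321 after induction, against 652 and 838 untreated. Within wild-type clone 10 they were 975 and 976 after induction, against 1230 and 1630 untreated.

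The balance between the 5p arms was also compared. Counts of mmu-miR-183-5p per count of mmu-miR-182-5p were 1.07, 0.909 and 1.01 in induced E518K and 0.559, 0.575 and 0.663 in induced wild type, so both miRNAs were about equal in E518K and miR-182-5p led in wild type. The groups did not overlap, the ratio was 1.66 times higher in E518K, and the exact permutation p was 0.1 (adjusted 0.3). Untreated E518K had 0.547, which is below every induced E518K library, and untreated wild type 0.778, which is above every induced wild-type library. KO had 0.688, 0.817 and 0.649, with a log2 difference from induced wild type of 0.26 (exact permutation p = 0.2). Counts of mmu-miR-96-5p per count of mmu-miR-182-5p overlapped between the groups, at 0.0244, 0.0433 and 0.0227 in induced E518K and 0.0204, 0.0251 and 0.0426 in induced wild type (log2 difference 0.05, exact permutation p = 0.9). Counts of mmu-miR-183-5p per count of mmu-miR-96-5p differed by 0.69 on the log2 scale (exact permutation p = 0.3).

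**Figure D4:**
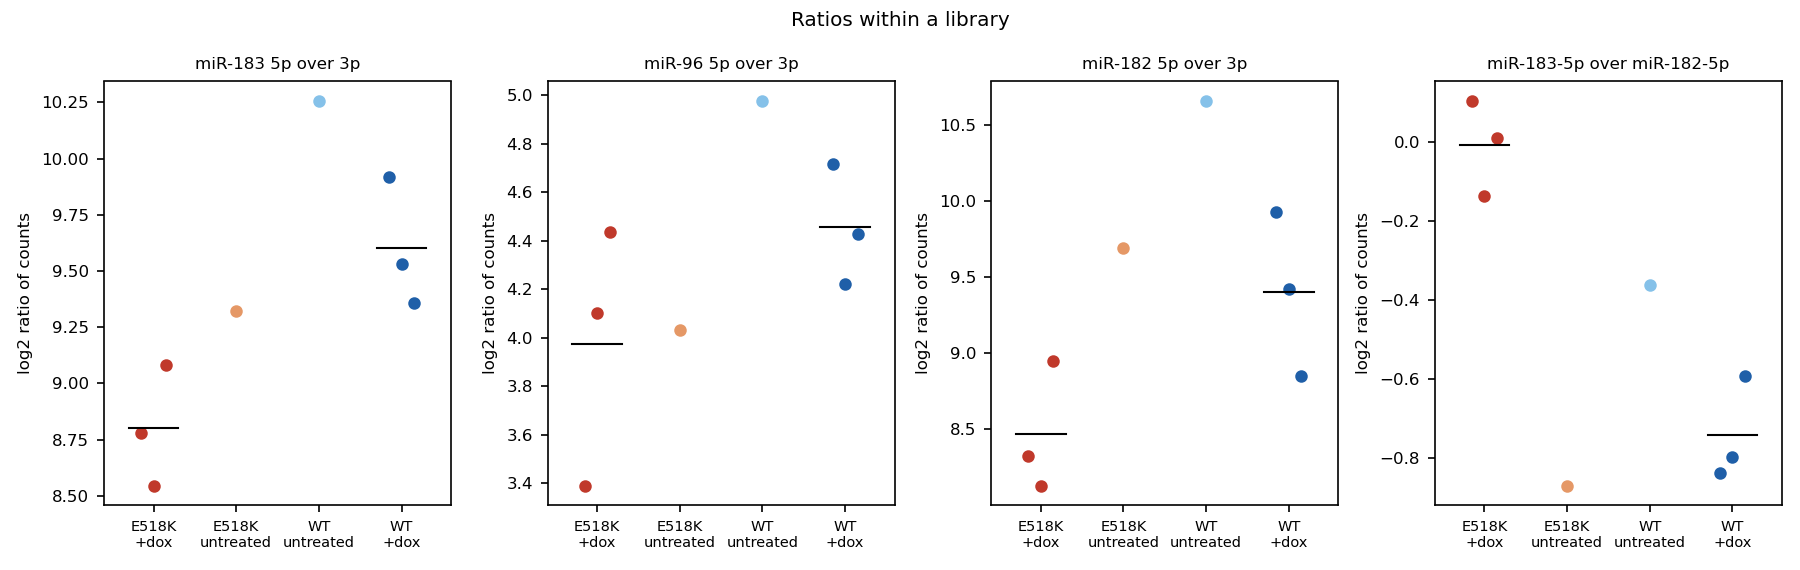
Log2 ratio of counts within a library for the 3 arm pairs and for miR-183-5p over miR-182-5p; points are libraries and bars the mean of 3. The induced E518K and induced wild-type libraries are apart for miR-183 5p over 3p and for miR-183-5p over miR-182-5p, and overlap in the other 2 panels.

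The second comparison asked how far the cluster depends on DGCR8. All 6 arms fell in KO relative to induced wild type, where 58.4% of all tested miRNAs were called lower. Every KO library lay below every induced wild-type library for all 6 arms, which held for 60.0% of tested miRNAs. The median log2 change was −6.87 over the 6 arms, or −5.49 with the 2 arms at 0 counts in KO placed at their bounds, and −3.54 over all tested miRNAs. This comparison shares its wild-type libraries with the first.

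mmu-miR-183-5p had 343.2, 510.2 and 619.2 CPM in KO, from 161, 170 and 203 counts, and fell by 6.28 ± 0.51 on the log2 scale against induced wild type (adjusted p = 1e-30). mmu-miR-182-5p had 498.8, 624.2 and 954.8 CPM in KO, from 234, 208 and 313 counts, and fell by 6.54 ± 0.52 (adjusted p = 4.57e-32). Both abundant 5p arms thus stayed countable in every KO library. mmu-miR-96-5p had 0, 8 and 5 counts in KO and fell by 7.19 ± 0.55 (adjusted p = 2.85e-34), where 1 library was at 0 and the other two near the floor of 6 counts. The size of the fall depended on the scaling. Total counts gave the smallest falls, −4.64 for mmu-miR-183-5p, −4.88 for mmu-miR-182-5p and −5.62 for mmu-miR-96-5p, and the DGCR8-independent list the largest, −12.64, −12.92 and −13.49 in the same order. With the deposited scaling mmu-miR-183-5p had −8.10. Among fits that left out 1 library, the smallest fall of mmu-miR-183-5p was −5.51 (without wild-type clone 12), followed by −5.56 (without KO replicate 2), and mmu-miR-182-5p had −5.72 when either one of these was left out.

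The 3p arms were at the limit of detection in KO. mmu-miR-96-3p and mmu-miR-182-3p had 0 counts in all 3 KO libraries. With TMM and the floor of 6 counts per library, they were at least 5.07-fold and at least 5.76-fold below induced wild type. Against induced E518K the bounds were at least 16.6-fold and at least 25.2-fold lower in KO. The TMM scaling factors were 1.936 to 2.246 in KO, 0.7001 to 1.145 in induced E518K and 0.5376 to 0.9095 in induced wild type. Total counts would therefore give smaller bounds, which were not computed. The adjusted p of mmu-miR-96-3p and mmu-miR-182-3p against induced wild type were 4.79e-14 and 1.64e-15 (edgeR's quasi-likelihood test). Their fitted changes are no measure of size. mmu-miR-183-3p had 2 counts in 1 KO library, which with TMM is 27.8-fold lower than induced wild type (edgeR's quasi-likelihood test, adjusted p = 1.29e-08). The counting interval of this fold was 7.66 to 230. It was computed on counts that were not halved, so with 1 small RNA taken as 2 counts it is too narrow. In KO the miR-290 cluster held 0.377% ± 0.247 of counts, so the miR-183 cluster had 0.76 counts for each of its counts, against 0.123 in induced wild type. With the same test 18 of 18 miR-290 cluster and 7 of 7 miR-200 miRNAs were lower in KO. Of the let-7 family 7 of 13 were lower and 3 higher, where 58.4% of all tested miRNAs were lower and 30% higher, so its share of lower calls was near that of all miRNAs. Of the DGCR8-independent miRNAs 13 of 14 were higher.

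Induced E518K was next compared with KO, to see what the mutant protein adds to cells without DGCR8. All 6 arms were higher in induced E518K, where 41.9% of all tested miRNAs were called higher. mmu-miR-183-5p averaged 148718 ± 41592 CPM in induced E518K and 490.9 ± 139.0 CPM in KO (SD, n = 3 each), a log2 change of 8.25. mmu-miR-182-5p averaged 148419 ± 36810 CPM in induced E518K and 692.6 ± 235.6 CPM in KO, a log2 change of 7.75. mmu-miR-96-5p averaged 4264 ± 896.6 CPM in induced E518K and 13.09 ± 12.15 CPM in KO, a log2 change of 8.46. The median over the 6 arms was 8.35, or 7.59 with the 2 arms at 0 counts in KO placed at their bounds. It was 1.35 over all tested miRNAs. The miR-290 cluster had a median of 7.35, with 18 of 18 miRNAs called higher, and the miR-200 family 6.38, with 6 of 7. The let-7 family had 3.31, with 10 of 13 called higher. The DGCR8-independent miRNAs had −2.57, with 0 of 14 higher and 12 lower. A large gain over KO was thus not particular to the miR-183 cluster. Across scalings the change ran from 7.0 (total counts) to 11.66 (DGCR8-independent list) for mmu-miR-183-5p, from 6.51 to 11.17 for mmu-miR-182-5p and from 7.31 to 11.79 for mmu-miR-96-5p. Ranked by counts within a library, mmu-miR-183-5p stood at 1, 2 and 3 among the miRNAs in induced E518K clones 8, 13 and 15, at 45, 46 and 43 in KO and at 8, 7 and 7 in induced wild type. The ranks of mmu-miR-182-5p were 4, 1 and 4 in induced E518K, 37, 41 and 33 in KO and 5, 5 and 6 in induced wild type.

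The untreated libraries were sequenced to look for leaky expression of the vectors, and the cluster was far above KO in both. In untreated wild type mmu-miR-183-5p had 129345 CPM and mmu-miR-182-5p 166354 CPM, against the 343.2 to 619.2 and 498.8 to 954.8 CPM of KO. The log2 changes were 8.04 and 7.91, and all 6 arms were called higher in untreated wild type, where 43.3% of all tested miRNAs were called higher. In untreated E518K mmu-miR-183-5p had 53879.8 CPM and mmu-miR-182-5p 98456 CPM, with log2 changes over KO of 6.78 (adjusted p = 2.1e-28) and 7.15 (adjusted p = 5.4e-30). mmu-miR-96-5p had 959.3 CPM in untreated E518K and 0, 24.01 and 15.25 CPM in KO (6.31, adjusted p = 2.15e-22). Across scalings mmu-miR-183-5p ran from 5.97 to 10.92 in untreated wild type over KO. In untreated E518K over KO it ran from 6.01 to 7.34, the highest with TMM factors computed without the members. All 6 arms were called higher in untreated E518K too, where 15.2% of all tested miRNAs were. Each untreated group is 1 library, assumed in the fit to vary like the other groups, and these comparisons share the KO libraries with the preceding ones.

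The other lists are given for the same comparison of untreated E518K with KO, where 15.2% of all tested miRNAs were called higher. The DGCR8-independent list held 34.6% of counts in untreated E518K and 39.6% ± 4.14 in KO. The miR-290 cluster held 2.51% in untreated E518K, and 12 of its 18 miRNAs were called higher than in KO (median log2 change 3.02). Of the let-7 family 2 of 13, of the miR-200 family 1 of 7 and of the DGCR8-independent miRNAs 0 of 14 were called higher by edgeR's quasi-likelihood test, with medians of 0.73, 0.86 and 0.91, and 1 of the DGCR8-independent miRNAs was higher at an unadjusted p under 0.05. The median over the 6 arms of the miR-183 cluster was 6.97, or 5.89 with the same 2 arms at their bounds, against 0.46 over all tested miRNAs. In untreated E518K the cluster had 7.28 counts per miR-290 cluster count, whereas the ratio was 0.895 in induced E518K, and untreated wild type had 0.246.

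Induction was then compared with the untreated libraries, by TMM unless stated. In E518K 5 of 6 arms were called higher after induction, where 28.4% of all tested miRNAs were. The median log2 change was 1.89 over the 6 arms and 1.14 over all tested miRNAs. It was 4.36 over the miR-290 cluster, with 18 of 18 miRNAs called higher, and 4.43 over the miR-200 family, with 5 of 7. The let-7 family had 1.85, with 8 of 13 called higher. The DGCR8-independent miRNAs had −3.45, with 14 of 14 called lower. mmu-miR-183-5p changed by 1.46 ± 0.63 (adjusted p = 0.0411), mmu-miR-96-5p by 2.15 ± 0.61 (adjusted p = 0.0015) and mmu-miR-183-3p by 1.98 ± 0.71 (adjusted p = 0.0129). mmu-miR-96-3p changed by 2.25 ± 0.74 (adjusted p = 0.0068) and mmu-miR-182-3p by 1.81 ± 0.67 (adjusted p = 0.0166). mmu-miR-182-5p had 0.59 ± 0.60 and did not pass with TMM (adjusted p = 0.41). Without induced E518K clone 8, the clone that was also sequenced untreated, the changes were of like size (1.63, 2.39, 2.08, 2.19 and 1.88 for the same 5 arms in the same order), but mmu-miR-96-5p was the 1 arm called and the other 4 had adjusted p of 0.0542 to 0.0697. The call of mmu-miR-183-5p was also lost without clone 15 (1.15, adjusted p = 0.151). The scaling moved the sizes further. With total counts 1 arm was called, mmu-miR-96-5p at 1.78, and mmu-miR-182-5p had 0.13. Of all 730 tested miRNAs 140 were then called higher, with a median of 0.74. All 6 arms were called higher with the deposited scaling, at 2.43 for mmu-miR-182-5p (adjusted p = 0.000185) and 3.29 to 4.18 for the others. There 306 of all tested miRNAs were called higher and their median was 3.00, above mmu-miR-182-5p. With the DGCR8-independent list all 6 were called too, at 4.59 for mmu-miR-182-5p (adjusted p = 1.36e-08) and 5.47 to 6.22 for the others. There 418 of all tested miRNAs were called higher, with a median of 4.29.

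In wild type 2 of 6 arms were called lower after induction, where 18.9% of all tested miRNAs were called lower. The median log2 change was −0.90 over the 6 arms and 0.39 over all tested miRNAs. The arms called were mmu-miR-183-5p (−1.77 ± 0.53, adjusted p = 0.00463) and mmu-miR-182-5p (−1.37 ± 0.54, adjusted p = 0.0354). The other 4 arms had changes of −0.11 to −1.10 with adjusted p of 0.128 to 0.897. Without induced wild-type clone 10, 12 or 16 the changes were −1.22, −1.40 and −1.55 for mmu-miR-183-5p (adjusted p = 0.0889 to 0.122) and −0.88, −1.05 and −1.10 for mmu-miR-182-5p (adjusted p = 0.212 to 0.284). In each of these fits edgeR's quasi-likelihood test called 0 arms, 0 or 1 arm had an unadjusted p under 0.05, and DESeq2 on all libraries called 1. With the DGCR8-independent list as the scale all 6 arms were called higher in induced wild type, at 1.72 to 3.39, and 497 of all tested miRNAs were called higher and 7 lower, against 116 and 138 with TMM. In wild type the direction therefore depended on the scaling.

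Within a single clone, with 1 library on each side and no test, the levels were as follows. In E518K clone 8 the CPM after induction over that without doxycycline was 2.73 for mmu-miR-183-5p, 3.49 for mmu-miR-96-5p and 1.39 for mmu-miR-182-5p, and 3.64 to 5.58 for the 3p arms. In wild-type clone 10 it was 0.292 for mmu-miR-183-5p, 0.479 for mmu-miR-96-5p and 0.406 for mmu-miR-182-5p, and 0.369 to 0.678 for the 3p arms. As a share of the miRNA counts, mmu-miR-182-5p in clone 8 held 11.7% with and without doxycycline (ratio 0.995). The other 5 arms there had ratios of 1.95 to 3.99, and all 6 arms in clone 10 had 0.363 to 0.843. Per count of the DGCR8-independent list all 6 arms were higher after induction in both clones, by 21.9 to 88.0 times in E518K clone 8 and by 3.07 to 7.12 times in wild-type clone 10. The list itself fell from 34.6 to 1.57% of counts in clone 8 and from 1.27 to 0.151% in clone 10, which raises these ratios.

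**Figure D5:**
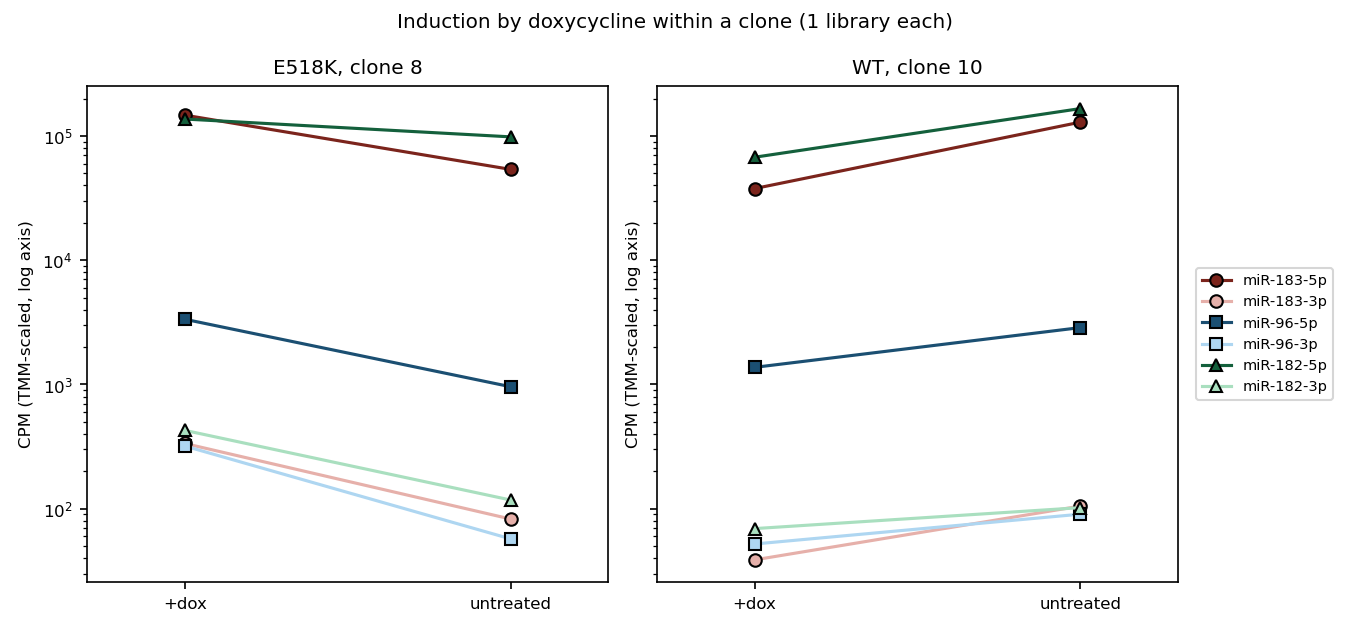
CPM (TMM-scaled, log axis) of each arm with and without doxycycline in E518K clone 8 (left) and wild-type clone 10 (right), 1 library per point. In clone 8 all 6 arms are higher with doxycycline in TMM-scaled CPM, by 1.39 to 5.58 times, and in clone 10 all 6 are lower. By share of the miRNA counts the ratios in clone 8 are 0.995 (mmu-miR-182-5p) to 3.99. Per count of the DGCR8-independent list, whose own share falls with doxycycline, all 6 are higher with doxycycline in both clones.

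The difference between the 2 inductions was tested as an interaction, for which 17.4% of all tested miRNAs were called higher (median log2 difference 0.68). The change on doxycycline was higher in E518K than in wild type by 3.23 ± 0.85 for mmu-miR-183-5p (adjusted p = 0.00155), 3.07 ± 0.91 for mmu-miR-183-3p (adjusted p = 0.00645) and 2.85 ± 0.77 for mmu-miR-96-5p (adjusted p = 0.00249). mmu-miR-96-3p (2.37, adjusted p = 0.0506), mmu-miR-182-5p (1.96, adjusted p = 0.0754) and mmu-miR-182-3p (1.92, adjusted p = 0.102) did not pass. The number of arms called was 1 without wild-type clone 10 or 12 or without E518K clone 8 or 15. In those fits 60 to 79 of all tested miRNAs were called higher, with medians of 0.24 to 0.32. Without wild-type clone 16 all 6 arms were called, where 180 of all 688 tested miRNAs were called higher and their median was 2.06. The sign was positive for every arm under each scaling tried, the DGCR8-independent list included.

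Across the 11 libraries mmu-miR-183-5p and mmu-miR-182-5p, the 1 pair of arms for which it was computed, had a Pearson r of 0.995 on log2(CPM + 1). The miRNAs from other hairpins most like the mean of the 3 members of the 5p arm, among 465 candidates, were mmu-miR-495-3p (Pearson r = 0.994), mmu-miR-101a-3p (0.992), mmu-miR-148a-3p (0.986), mmu-miR-92a-1-5p (0.984) and mmu-miR-669c-5p (0.978). The sixth was at 0.977 and the median candidate at 0.628. These correlations are descriptions over 11 libraries in 5 groups that share a scaling and differ in depth by group, and the KO libraries sit far from the rest. mmu-miR-101a-3p averaged 34609.7 CPM in induced E518K, 157.6 CPM in KO and 10094 CPM in induced wild type, and mmu-miR-495-3p averaged 1904, 4.051 and 629.3 CPM in the same groups.

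Other miRNA hairpins on chromosome 6 did not all follow the cluster. Within 2 Mb lie Mir129-1, Mir335, Mir29a and Mir29b-1, at 572 to 1140 kb. mmu-miR-335-3p averaged 916.2 CPM in induced E518K and 886.2 CPM in induced wild type (0.05 ± 0.38, adjusted p = 0.913). It had 50.82 CPM in untreated E518K and 0 counts in KO. mmu-miR-29a-3p averaged 765.9 CPM in induced E518K and 75.87 CPM in induced wild type, a log2 change of 3.33 ± 0.42 (adjusted p = 1.91e-13), but was also higher in KO than in induced wild type (1.26 ± 0.41, adjusted p = 0.00283), unlike the members of the cluster. mmu-miR-29b-3p was higher in induced E518K by 2.76 (adjusted p = 1.14e-07) and mmu-miR-129-5p by 1.40 (adjusted p = 0.00294), though both can also come from hairpins elsewhere.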

How the data were processed

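Small RNA counts per mature miRNA for 11 libraries were deposited by the authors as whole-number counts with no normalization, and the same table was deposited as pRPM, an RPM-type unit whose column totals were the same for all libraries of a group (85006 in KO, 683476 in induced E518K, 938495 in induced wild type). Of the nonzero pRPM values 100% gave whole reads within 0.01 reads, and these equalled the counts. STAR and bedtools were used with build GRCm38.p6, per the submitters' processing notes, in roles the labels do not give. A piRNA file held the same bytes as the pRPM table and was not used.

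Counts were tested with edgeR 4.0.16 (R 4.3.3): TMM scaling, filterByExpr (minimum count 10, total 15), robust quasi-likelihood fit of 5 group means, Benjamini-Hochberg adjustment over 730 miRNAs, threshold 0.05. DESeq2 1.42.0 was an alternative. The fit was also run on counts simulated from the induced wild-type profile, with known changes in induced E518K, as many up as down. That simulation held no loss of miRNAs in KO and no shift of most miRNAs, so it does not check the scaling. Ratios within a library (0.5 added to each count) were compared by exact permutation in scipy 1.17.1. Intervals of shares are exact Clopper-Pearson on halved counts. Replicates differed beyond sampling noise (chi-square per degree of freedom 24.3 to 557, r of log2 values 0.955 to 0.982). The 15 DGCR8-independent miRNAs served as another scaling. RefSeq sequences matched 1675 of 1966 names (85.2%), 6 of 6 members. Named beside the members were miRNAs with a member's seed, those within 2 Mb, the 5 most alike over the libraries, and the lists. Members and lists were chosen with earlier results of these data known. P-values measure the spread between these samples, which may be technical.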

Additional observations from a re-analysis of the deposited data

Results flagged for a closer look

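The change on doxycycline differed between the E518K and wild-type vectors, by the test of the difference itself, for 3 members. On the log2 scale it was higher in E518K by 3.23 for mmu-miR-183-5p (edgeR's quasi-likelihood test, adjusted p = 0.00155), by 3.07 for mmu-miR-183-3p (adjusted p = 0.00645) and by 2.85 for mmu-miR-96-5p (adjusted p = 0.00249). Without wild-type clone 10 or 12, without E518K clone 8 or 15, or with total counts, mmu-miR-183-3p (adjusted p = 0.0679 to 0.202) and mmu-miR-96-5p (adjusted p = 0.054 to 0.112) no longer passed, and mmu-miR-183-5p did. Each side has 1 untreated library, clone 8 for E518K and clone 10 for wild type. The untreated E518K library had 264507 miRNA counts and 34.6% of them in DGCR8-independent miRNAs, against 1421247 counts and 1.27% in the untreated wild-type library, and the part of these differences in the result was not tested. Groups of 3 or of 1 library allow no test for a single library far from the others.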

How the results depend on the processing

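The cluster's calls in KO over induced wild type, and in induced E518K and both untreated libraries over KO, kept their direction and side of the threshold under every alternative run (total counts, DESeq2 size factors, list scaling, deposited scaling, no filter, halved counts, DESeq2, leaving out libraries, and TMM factors without the members, added after seeing the data), but not their size: miR-183-5p ran from −12.64 (list scaling) to −4.64 (total counts) in KO over induced wild type and from 7.0 (total counts) to 11.66 (list scaling) in induced E518K over KO. No paired analysis was possible because the groups compared share fewer than 2 clone numbers. In E518K over wild type, scaling to the DGCR8-independent list reversed all 6 arms, at −0.98 (miR-183-5p), −0.24 (miR-183-3p), −1.70 (miR-96-5p), −1.27 (miR-96-3p), −1.74 (miR-182-5p) and −0.85 (miR-182-3p), with 4 called lower. They were 2.59, 3.39, 2.04, 2.41, 1.77 and 2.83 with TMM without wild-type clone 16. In induced over untreated wild type list scaling gave 1.72, 2.40, 2.80, 3.39, 2.12 and 3.39 in the same order. In that comparison miR-96-3p and miR-182-3p also turned positive with total counts (0.38 and 0.38), DESeq2 size factors (0.53 and 0.55), the deposited scaling (0.83 and 0.83), TMM without the members (0.33 and 0.34) and DESeq2 (0.53 and 0.56), and miR-96-5p with the deposited scaling (0.26). Left-out libraries gave −0.68 to 0.052 for miR-96-5p, −0.088 to 0.70 for miR-96-3p and −0.052 to 0.65 for miR-182-3p. Members called there were 2, but 1 with total counts and DESeq2, 0 with DESeq2 size factors, the deposited scaling, TMM without the members and any induced wild-type clone left out, and 6 with list scaling. In induced over untreated E518K 5 were called, but 1 with total counts, 4 with no filter, 6 with list scaling and with the deposited scaling, and 1 to 5 with a library left out. Of all tested miRNAs 207 were called higher there with TMM, 140 with total counts, 418 with list scaling and 306 with the deposited scaling. For the induction difference 3 were called, but 1 with total counts and 6 with list scaling and with the deposited scaling. Halved counts gave 4, DESeq2 5, and fits with a library left out 1 to 6. Of all tested miRNAs 127 were called higher there with TMM, 56 with total counts, 157 with list scaling and 162 with the deposited scaling. The log2 difference of miR-96-5p over miR-182-5p was −0.25 to 0.35 with a library left out. The cluster share moved to 36.9% in induced E518K and 15.3% in induced wild type without the miR-290 cluster in the total, and to 29.9% and 8.35% with miRNAs that repeat another's counts counted once. The cause was not tested. The KO depth limits the 3p arms, which lie at or under the floor of 6 counts.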
